A study of Rattus norvegicus with 2 samples.

Results

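Of the 4212 gene names in the table of m6A peaks from lead-exposed rat hippocampal neurons, 192 (4.56%) carried 6 or more peaks, and these 192 genes held 1519 of the 8512 listed peaks (17.8%). They were chosen by counting the table's peaks under each deposited gene name and keeping every name with at least 6. Their number of peaks is therefore the rule and not a finding. Fold and p come from the same comparison of libraries that gave the peaks, so they are described here without a test. Another 1700 genes had 2 to 5 peaks (4673 peaks) and 2320 genes had 1. Among the 192 genes, 66 had 6 peaks, 45 had 7, 43 had 8 or 9 and 38 had 10 or more, with a median of 7 and a maximum of 18. They lay on all 21 chromosomes of the table.

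m6A is a methyl group on the N6 position of adenosine, placed on nascent messenger RNA by a nuclear writer complex with METTL3 and METTL14 at its core. Reader proteins that recognise it can change the splicing, export, translation and decay of a transcript, and in neurons methylated transcripts are known to be handled in dendrites and axons as well as in the cell body. In methylated RNA immunoprecipitation, RNA is broken into fragments, fragments that carry m6A are pulled down with an antibody, and a peak is a region where the pulled-down library holds more reads than its background.

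The neurons came from hippocampi of newborn (P0) Sprague-Dawley rats, received AraC, an inhibitor of dividing cells, on day 7 in vitro, and were exposed to lead acetate for 48 h from day 12. The labels of the samples gave 5 mM and the study's design 5 µM, and the end of the exposure was given as day 13 and as day 14. Both groups, an immunoprecipitate (IP) and an input, came from exposed neurons. Unexposed neurons are not analysed here, and none of the values is therefore an effect of lead. Each group was a single library, so no replicate error and no test could be had, and the labels do not say how many animals were pooled. Fold enrichment (IP over the caller's background) and p are those of the authors' deposited table, which holds no read counts, so the depth is unknown. The false discovery rate stood at 100% in all 8512 rows. Positions are printed as the table gives them, on a genome build that the sources used here do not give.

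Of 16 neuronal marker genes, 10 had a peak, among them Rbfox3, Map2, Mapt and Syt1, while Tubb3, Nefl, Syp, Dcx, Stmn2 and Camk2a had none. A peak was present for 3 of 9 astrocyte markers (Fgfr3, Slc4a4 and Sox9) and 1 of 9 oligodendrocyte markers (Cnp). It was also present for 2 of 9 microglial markers (Aif1 and C1qa) and 1 of 9 vascular and fibroblast markers (Col3a1). Gfap, Aqp4, Mbp and Cx3cr1 were among those without a peak. No marker of any of these cell types had 6 peaks. Of all gene names with a peak 4.56% had 6 or more, and among so few markers a count of 0 is close to that share.

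Peaks in the 192 genes were somewhat stronger than peaks elsewhere in the table. Their median fold was 6.46 (quartiles 4.63 and 9.9, range 2.2 to 53.6), against 6 in genes with 2 to 5 peaks and 5.45 in genes with 1. A fold of at least 10 was reached by 374 of the 1519 peaks (24.6%, exact 95% interval 22.5 to 26.9), against 17.3% of all listed peaks. The share was 17.0% in genes with 2 to 5 peaks and 13.2% in genes with 1. The caller's p did not exceed 1e-10 for 661 peaks (43.5%, 41.0 to 46.1), against 32.9% of all listed peaks. Weak peaks were also part of the set, since 1203 peaks (79.2%) had a p of at most 0.05, against 71.8% of all listed peaks. These intervals cover counting error only, and because a gene enters through peaks of this same comparison, nothing is read from the shares.

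Most peaks of the set were short. Their median length was 148 bases (quartiles 109 and 199), against 150 in genes with 2 to 5 peaks and 209.5 in genes with 1. Only 90 peaks (5.92%) were 400 bases or longer, against 26.6% of the peaks of genes with 1. The longest lay in coiled-coil genes of the Golgi and its vesicles, 5123 bases in Golgb1 and 4196 bases in Golga4. At least 1 peak of 10-fold or more was present in 140 of the 192 genes (72.9%), against 1018 of all 4212 (24.2%), a share that more peaks per gene raise by themselves.

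Genes on either side of the limit had similar medians. The 66 genes with 6 peaks had a median strongest fold of 10.98 (range 4.77 to 45.78) and a median span of 37903 bases. The 112 genes with 5 peaks, just outside, had 10.02 (4.6 to 40.42) and 32551.5 bases. Just inside, the highest folds were those of Cfdp1 (45.78), a chromatin protein named for craniofacial development, the kinase gene Cdk11b (43.99), Anp32a (38.11), an acidic nuclear phosphoprotein, and the Golgi protein gene Acbd3 (32.46). Just outside were Chmp3 (40.42) of the endosomal sorting machinery, the splicing factor Hnrnpm (39.81), the actin-binding Cald1 (39) and Upf3b (33.15) of nonsense-mediated decay.

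Neighbouring peaks of these genes lay a few kilobases apart on the chromosome. The 1326 gaps between the end of a peak and the start of the next had a median of 3515.5 bases (quartiles 1734 and 9091.5), against 5382 bases over 2962 gaps in genes with 2 to 5 peaks. Gaps under 10 kb made up 77.2% in the set and 63.8% in genes with 2 to 5 peaks. At the short end the classes were alike, since gaps under 1 kb made up 8.14% and 7.83%. The shortest gap in the set was 414 bases, so no peak of a gene adjoined another. In 1285 of the 1326 neighbouring pairs (96.9%) the caller's peak numbers were consecutive, so in most pairs the table left out no called region between them. Distances are genomic and include introns. It was not tested whether 1 enriched stretch of spliced RNA can appear as more than 1 peak, so peaks are not counts of methylated sites.

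**Figure D1:**
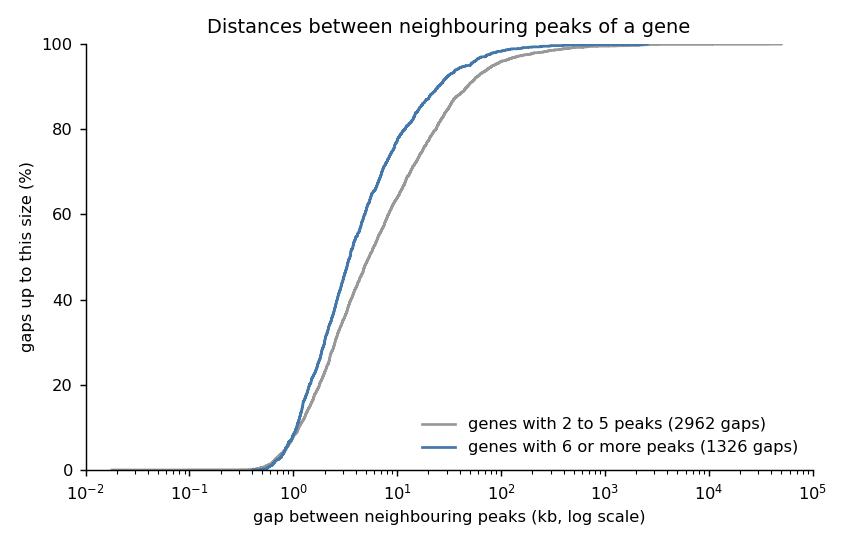
Cumulative share of gaps (percent, vertical axis) up to a given size (kb, log scale) between neighbouring peaks of a gene, for 1326 gaps in genes with 6 or more peaks (blue) and 2962 gaps in genes with 2 to 5 peaks (grey). The curves meet below 1 kb and separate above it, with 77.2% against 63.8% of gaps under 10 kb.

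The tightest rows of peaks, leaving out provisional names, belonged to genes of quite different roles. Cdc42bpb, a kinase downstream of Cdc42, had a median gap of 1111 bases, although its 6 peaks spanned 60996 bases because 1 gap measured 54308. Eif3a, a core subunit of translation initiation factor 3, followed with 1171 bases and packed 8 peaks into 10934 bases of chromosome 1 (289480597 to 289491530). The early endosome tether Eea1 had a median gap of 1194 bases over 11 peaks. Tchp, a keratin-binding protein of the centrosome, had 1212 bases, with 8 peaks in 10703 bases of chromosome 12. Eif3a and Tchp thus had no long gap, with gaps of 804 to 2192 bases in Eif3a and 772 to 1853 bases in Tchp.

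Spans, from the first base of the first peak to the last base of the last, had a median of 48233.5 bases (quartiles 27237.5 and 91473.5), against 13110.5 in genes with 2 to 5 peaks. In 42 genes the span exceeded 100 kb and in 18 it was under 20 kb. The peaks covered little of it, with a median of 1235 bases per gene or 2.98% of the span. Steps within a span were unequal: the largest gap was a median of 4.75 times the median gap of its gene and took up 40.9% of the span, and in 72 genes it took up more than the rest of the span together. Over the 192 genes, the number of peaks followed the span loosely (Spearman rho 0.28) and the median gap hardly (-0.11), as a description across genes that share both libraries.

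The 5 widest spans came from genes of 2 kinds. In Epb41l1, Cttn and Pdcd5 the peaks formed separate clusters far apart under a single name, as described further on. Erc2 and Rims1, which encode proteins of the presynaptic active zone, had peaks spread through a long gene. The 11 peaks of Erc2 spanned 838526 bases of chromosome 16 (3376113 to 4214638) with a median gap of 52493 bases. The 8 peaks of Rims1 spanned 519479 bases of chromosome 9 with a median gap of 51121. No gap in Rims1 was shorter than 17033 bases, whereas that of Erc2 fell to 2923.

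**Figure D2:**
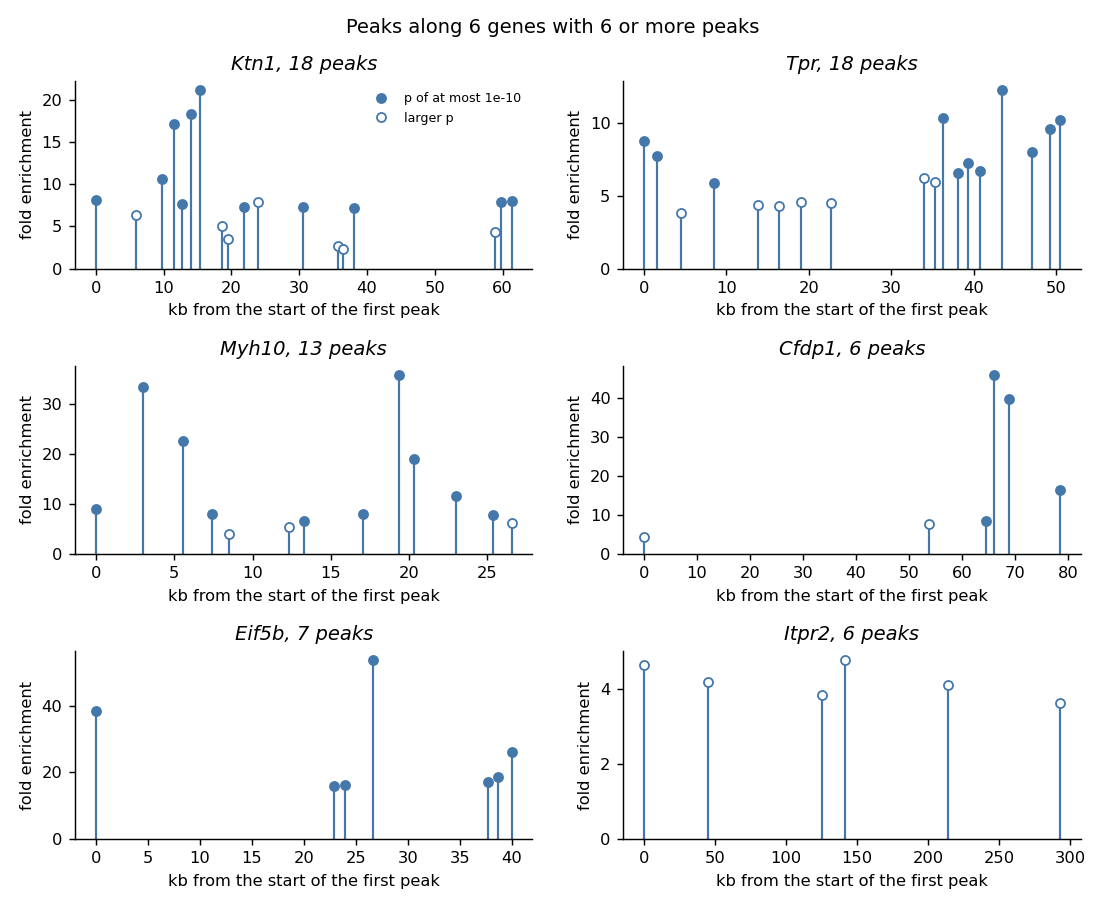
Fold enrichment of each peak (vertical axis, linear from 0) against distance from the start of the first peak (kb) in 6 of the genes; filled points have a p of at most 1e-10 and open points a larger p. Ktn1 and Cfdp1 show a run of strong peaks beside weak ones, every peak of Eif5b is filled, and every peak of Itpr2 is open and below 5-fold.

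Folds differed within the genes, though most peaks lay within 2-fold of their gene's median. The SD of log2 fold within a gene had a median of 0.63 (quartiles 0.48 and 0.83, range 0.15 to 1.37), against 0.46 in genes with 2 to 5 peaks, whose SD rests on fewer values. The ratio of a gene's strongest to its weakest peak had a median of 3.60. It was under 4 in 115 genes and reached 10 in 7. Of the 1519 peaks, 1308 (86.1%) were within 2-fold of their gene's median, and in 74 genes all were. Differences between gene means made up 32.2% of the variance of log2 fold and differences within genes the other 67.8%. This split is uncorrected: with so few peaks per gene, scatter among peaks alone also makes gene means differ.

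Nearness of peaks was accompanied by only slightly closer folds. Neighbouring peaks differed by a median of 0.59 on the log2 scale, and the 4474 pairs of peaks in the same gene that were not neighbours by 0.67. By distance between centres, the median difference was 0.62 under 2 kb, 0.61 from 2 to 5 kb, 0.67 from 5 to 20 kb, 0.68 from 20 to 100 kb and 0.65 above 100 kb. The strongest peak was the first or last of its gene in 55 of 192 genes (28.6%). Such end peaks made up 25.3% of all peaks of the set. This is a share of peaks, which genes with many peaks lower, so it is no direct yardstick for the share of genes. End peaks were longer than interior ones (median 166 against 144 bases) and had a lower median fold (6.14 against 6.56). The share with a p of at most 1e-10 was 38.0% for end peaks and 45.4% for interior peaks. Strand is not in the table, so an end is not known to be 5′ or 3′.

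**Figure D3:**
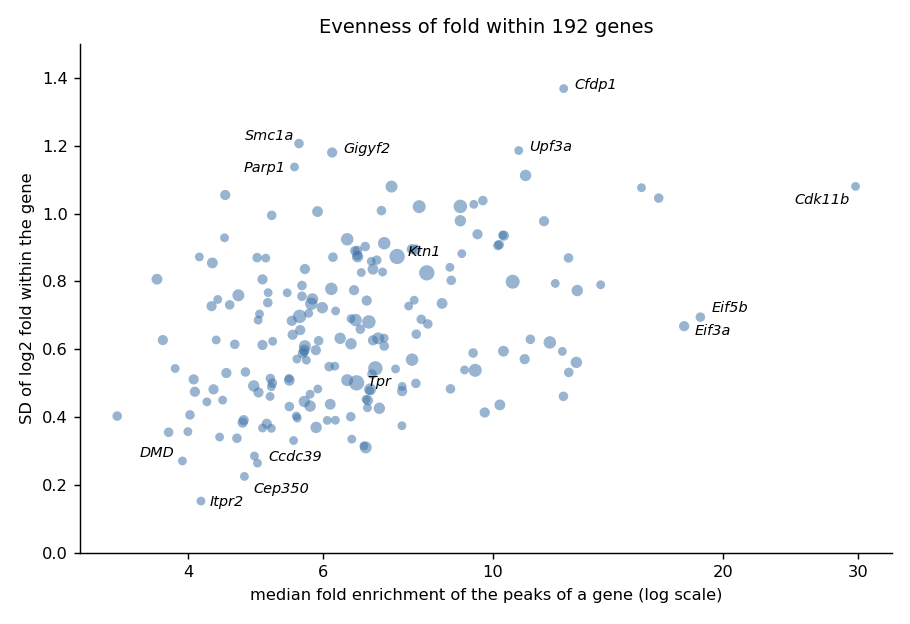
SD of log2 fold within a gene (vertical axis) against the median fold of its peaks (horizontal axis, log scale) for the 192 genes, with larger points for more peaks. Itpr2 lies lowest at an SD of 0.15, Cfdp1 highest at 1.37, and Cdk11b farthest right at a median fold of 29.76.

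The most even gene was Itpr2, a receptor that releases calcium from the endoplasmic reticulum on binding inositol trisphosphate. Its 6 peaks on chromosome 4 had folds of 4.65, 4.2, 3.83, 4.77, 4.11 and 3.64 in genomic order, an SD of 0.15, at a median gap of 72462 bases. None had a p of at most 1e-10, so an even row of weak peaks was what the table held for Itpr2. Cep350, a centrosomal protein (SD 0.23, folds 4.39 to 6.2), and Ccdc39 of motile cilia (0.26, 3.78 to 6.32) came next. DMD, deposited in capitals and encoding dystrophin, had an SD of 0.27 with folds from 3.42 to 5.88, and the axonal kinesin Kif1a 0.29 with folds from 3.46 to 6.1. All 5 of these even genes had a median fold under 5, and over the 192 genes the SD tended to be larger where the median fold was higher (Spearman rho 0.36, a description across genes).

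The least even genes each held a short run of strong peaks beside weak ones. Cfdp1 had folds of 4.36, 7.67, 8.37, 45.78, 39.66 and 16.37 along chromosome 19 (54806636 to 54885236), an SD of 1.37. In Smc1a, the cohesin subunit gene on chromosome X, folds climbed through 10.02 and 17.75 to 31.46 in the fourth to the sixth of its 7 peaks, and the last was 2.69. Upf3a of nonsense-mediated decay had 3.98, 2.81, 16.13, 23.84, 11.19 and 10.42. In Gigyf2, a translational repressor partner, the 3 middle strong peaks had 23.61, 28.62 and 23.95 and the 5 others 4.23 to 6.92. Parp1, which adds ADP-ribose chains at DNA breaks, had 18.68 and 18.81 in the fourth and the fifth peak and 3.19 to 6.45 in the other 4. In each of these 5 genes the strong peaks were next to each other in genomic order.

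The highest single folds of the set were in Eif5b (53.6), Cfdp1 (45.78), Cdk11b (43.99), Zc3h13 (43.31) and Chd5 (42.21). Eif5b, the factor that joins the ribosomal subunits at the start of translation, was strong throughout: its 7 peaks on chromosome 9 (44354656 to 44394895) had folds of 38.3, 15.75, 16.01, 53.6, 17.09, 18.66 and 26.17. Cdk11b, a kinase linked to transcription and splicing, had 11.88, 31.3, 43.99, 28.21, 32.78 and 6.2 on chromosome 5, and so the highest median fold of the set, 29.76. Zc3h13, itself a subunit of the m6A writer complex, had 11 peaks on chromosome 15 of which the ninth reached 43.31 and the tenth 22.94, while the first 5 stayed between 3.76 and 6.93. Chd5, a chromatin remodeller of neurons, had its 3 strongest peaks first, at 24.16, 28.14 and 42.21, followed by 7 peaks of 4.21 to 12.15. Every peak of Eif5b thus exceeded 10-fold, as did all of Cdk11b but its last, whereas Zc3h13 and Chd5 also held rows of weaker peaks.

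Taking p instead of fold, 7 genes had every peak at a p of at most 1e-10. They were Myh9l1 with 12 peaks, Eif3a with 8, Eif5b, Cfap45 and Rdx with 7 each, and Anp32a and Rtf1 with 6 each. Of these, Cfap45, Rdx and Rtf1 were named after their values were seen. In Myh9l1 and Anp32a, peak lengths recurred at 2 loci, as described next, and whether these are copies was not tested. At the other end, 19 genes had no peak at a p of at most 1e-10, and the median gene had 3. Of all listed peaks 32.9% had such a p, and like counts over all genes are not given here.

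In 6 of the 192 names, at least 2 peak lengths recurred at another locus, for the whole row in Pdcd5, Myh9l1 and Katnal1 and for part of it in Cttn, Epb41l1 and Anp32a. The 10 peaks of Pdcd5, an apoptosis-linked gene, formed 5 at bases 92303910 to 92309238 of chromosome 1 and 5 at 93092982 to 93098394, 783743 bases away, with lengths of 200, 92, 62, 38 and 193 bases in the same order at both. Their folds were 9.54, 13.76, 11.05, 7.59 and 16.24 at the first locus. At the second locus they were 24.84, 17.89, 11.94, 7.63 and 17.45. The 12 peaks of Myh9l1, whose gene ID is that of Myh9 in the current gene table, a non-muscle myosin heavy chain, fell into 6 and 6 on chromosome 7 with the same lengths in the same order. Folds of the repeated rows were close for most peaks, the first peak of Pdcd5 being the widest difference at 2.60 times.

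Cttn, the actin-binding cortactin gene, had 7 peaks at one locus and 4 at another 2.28e+06 bases away, with 4 shared lengths. Epb41l1, a membrane skeleton protein gene, had 7 and 4 with 3 shared lengths, 2.57e+06 bases apart. Katnal1, a microtubule-severing subunit gene, had 3 and 3 with all 3 lengths shared, and Anp32a 3 on chromosome 3 and 3 on chromosome 8 with 2 lengths shared. Over 22 pairs of repeated peaks, with a length that occurs again at the same locus (213 bases in Myh9l1) paired once, the ratio of the higher to the lower fold had a median of 1.12 and ranged from 1 to 2.60. These values are uncertain: lengths were matched and no sequence was read, so whether the loci are copies that share reads was not tested. Counted at 1 locus only, 3 of the 6 genes (Myh9l1, Cttn and Epb41l1) still had 6 peaks or more and Pdcd5, Katnal1 and Anp32a did not. Among names with fewer than 6 peaks, 4 repeated in the same way.

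Shared lengths also linked different genes of a family. Of 18336 pairs among the 192 genes, 5 shared at least 4 peak lengths in the same or the reversed order, and each of the 5 joined relatives: Erc1 with Erc2, Smarca2 with Smarca4, and the 3 pairs among the non-muscle myosins Myh10, Myh14 and Myh9l1. Erc1 and Erc2 shared 8 lengths (161, 194, 141, 141, 138, 156, 75 and 417 bases), in reversed order along their chromosomes. The peaks of equal length had folds of 4.67, 9.85, 7.8, 10.15, 6.14, 5.4, 4.49 and 9.77 in Erc1. In Erc2 they had 6.45, 11.69, 5.09, 8.02, 8.42, 6.29, 3.77 and 10.74. The higher of each pair exceeded the lower by a median of 1.23 times. The shared rows thus had similar folds in both genes, higher in Erc1 in 3 of the 8 pairs.

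Among the myosins, folds at shared lengths differed most in the pairs with Myh10. Myh10 and Myh14 had 7 lengths in common (207, 213, 207, 249, 213, 162 and 129 bases), with folds of 33.46, 3.98, 6.47, 7.9, 35.81, 19.05 and 11.53 in Myh10 against 13.1, 11.83, 19.56, 13.25, 12.67, 14.28 and 14.34 in Myh14. The median ratio was 2.55, and folds in Myh10 ran from 3.98 to 35.81 while those in Myh14 stayed between 11.83 and 19.56. The median ratio was 2.23 for Myh10 and Myh9l1 over 7 lengths and 1.495 for Myh14 and Myh9l1 over 6. In both pairs the matched peaks of Myh9l1 came from its 2 loci together. With Myh10, for example, the peaks of 207 bases were that of 14.42 at the first locus and that of 20.96 at the second. These lengths and ratios are therefore not those of 1 Myh9l1 locus. Smarca2 and Smarca4, the alternative ATPases of the SWI/SNF complex, shared 5 lengths at a median ratio of 1.46, with the higher fold in Smarca2 in 4 of the 5. Whether equal lengths are those of matching exons was not tested.

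**Figure D4:**
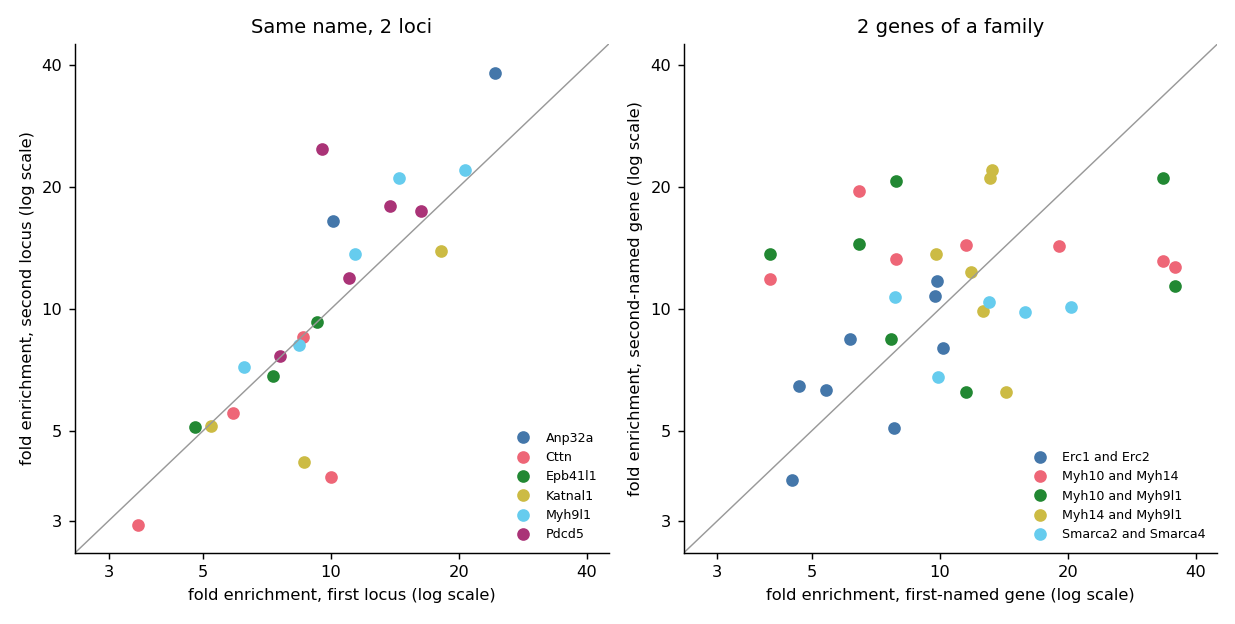
Fold enrichment of peaks of equal length, both axes on log scales, at 2 loci of the same name (left, 22 pairs in 6 genes) and in 2 genes of a family (right, 5 gene pairs); the line marks equal folds. Points on the left lie near the line, with a median ratio of 1.12, and those of Myh10 and Myh14 lie farther from it, at 2.55.

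To describe what the genes do, members were counted in 17 lists of functional groups, chosen with earlier results of these data known. They were also counted in 5 more lists written after the member names had been seen. A list gene was counted where the table had a peak for it. Of all gene names with a peak, 4.56% were in the set. The lists do not form independent evidence, and 120 of the 192 genes were in at least 1 of the 22. Coiled-coil scaffolds, motors and centrosome genes had high shares. The lists of postsynaptic genes (20 with a peak) and of ubiquitin ligases (19) held no member, which in lists of this size is close to 4.56%.

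**Figure D5:**
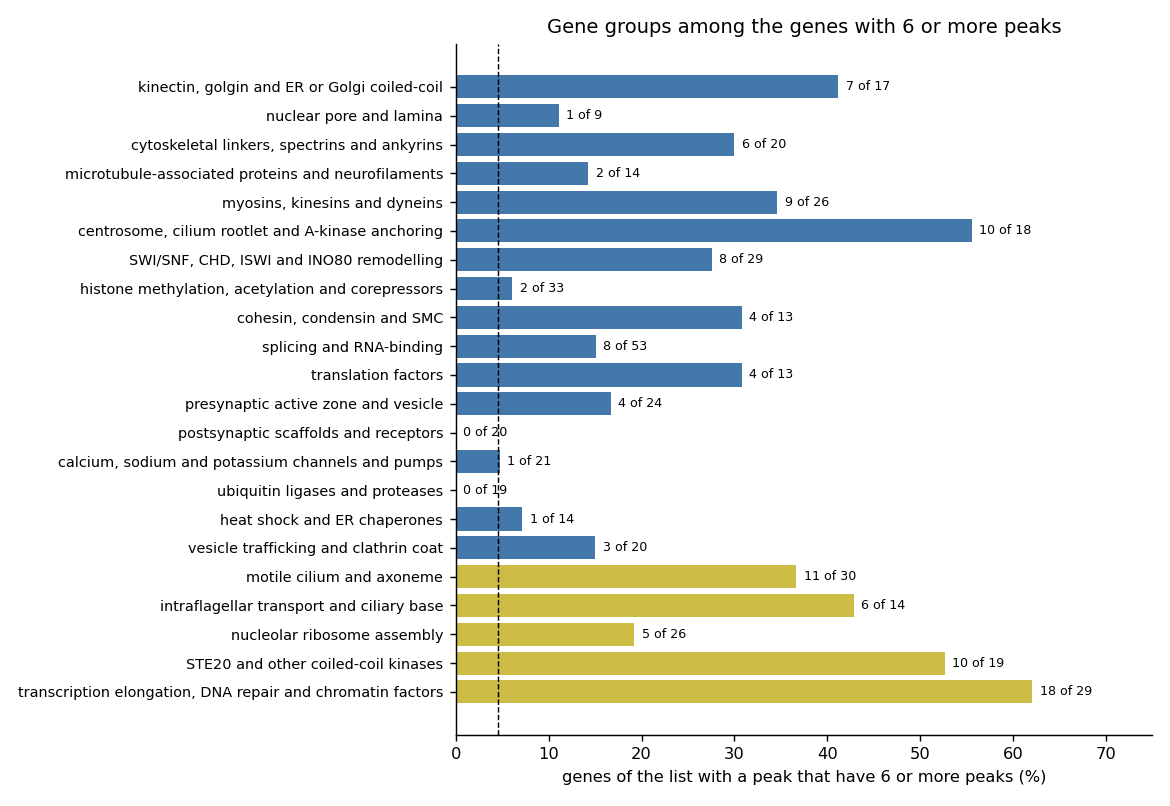
Share of each list's genes with a peak that had 6 or more peaks (percent, bars from 0, with counts). Blue bars are 17 lists chosen with earlier results of these data known. Yellow bars are 5 lists written after the member names had been seen. The dashed line marks 4.56%, the share over all 4212 names. Centrosome genes stand at 10 of 18. Postsynaptic genes stand at 0 of 20 and ubiquitin ligases at 0 of 19, which in lists of this size is close to the dashed line.

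Coiled-coil proteins of the endoplasmic reticulum and Golgi contributed 7 of 17 genes with a peak. Ktn1, which encodes kinectin, an anchor for kinesin on the endoplasmic reticulum, had 18 peaks between bases 28418704 and 28480134 of chromosome 15, with folds of 2.26 to 21.14 (median 7.50). Its 4 peaks of at least 10-fold all lay between the third and the seventh in genomic order. In Rrbp1, which encodes the ribosome-binding protein of the same membrane, 11 of 12 peaks had folds of 2.8 to 11.38 and the last had 33.91. The Golgi tethers Golga4 (10 peaks, 4.39 to 16.2) and Golgb1 (8 peaks, 2.99 to 13.61) had lower maxima. Their median gaps were close, 1753 bases in Ktn1, 2300 in Rrbp1, 2602 in Golga4 and 2787 in Golgb1.

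At the nuclear envelope the list of pore and lamina genes held 1 member among 9 genes with a peak. It was Tpr, the coiled-coil protein of the nuclear basket, with 18 peaks at bases 72577021 to 72627618 of chromosome 13. Folds in Tpr ran from 3.77 to 12.23 and were even for a gene with so many peaks (SD 0.50, against 0.87 in Ktn1). The third peak was its weakest and the fifteenth its strongest.

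Cytoskeletal linkers held 6 members of 20. Dst, which encodes dystonin, a linker between actin, microtubules and intermediate filaments, had 16 peaks over 116719 bases of chromosome 9 with folds of 3.5 to 12.04. Utrn, the dystrophin relative utrophin, had 10 peaks over 360260 bases at a median gap of 26165, with folds of 3.43 to 9.27. Sptbn4, the spectrin of the axon initial segment, had 6 peaks of 3.36 to 10.98. No peak in DMD, Utrn or Epb41l1 reached 10-fold, while 3 peaks of Dst did, and the strongest fold over the 6 linkers was the 12.04 of Dst. The list of microtubule-associated proteins gave 2 of 14, the plus-end protein Clip1 (9 peaks, 3.43 to 8.51) and Map7d1 (6 peaks, 3.04 to 16.89). That list did not hold Map7 (6 peaks, 5.97 to 29.75) and Map7d2 (7 peaks, 4.89 to 36.68), which were members too. Both were named after their values were seen.

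Among myosins, kinesins and dyneins, 9 of 26 genes were members. A p of at most 1e-10 was had by 55 of their 80 peaks (68.8%), against 43.5% in the whole set and 32.9% of all listed peaks. The 55 include all 12 peaks of Myh9l1, whose lengths recurred at 2 loci. Myh10, the non-muscle myosin IIB heavy chain, had 13 peaks over 26653 bases of chromosome 10 (55117773 to 55144425). Peaks of 33.46 and 35.81 stood at its second and ninth place, and its weakest was 3.98. Myh14 had 10 peaks of 3.2 to 19.56, of which 7 reached 10-fold. Kif21a, a kinesin that limits microtubule growth, had 12 peaks of 3.65 to 18.53, and 1 gap of 70519 bases took up most of its span of 110672.

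Centrosome and rootlet genes had 10 members of 18, and 28 of their 88 peaks (31.8%) had a p of at most 1e-10, near the 32.9% of all listed peaks. Akap9, a kinase scaffold of the Golgi and centrosome, had 14 peaks over 93305 bases of chromosome 4 with folds of 2.38 to 16.47. Crocc, which encodes rootletin of the ciliary rootlet, had 14 peaks in 31748 bases of chromosome 5, at a median gap of 1367, with folds of 2.81 to 13.38. Ccdc88c, a Wnt signalling protein grouped here through its relative girdin, had 12 peaks of 3.61 to 16.06, and the outer dense fibre gene Odf2 had 10 of 3.36 to 12.38. Strongest folds in the 10 genes ranged from 5.38 to 16.47, and none reached 20-fold.

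Cilium genes were noticed among the members and listed afterwards. Motile cilium and axoneme genes had 11 members of 30 with a peak (46 listed), holding 78 peaks. Of these peaks 41.0% had a p of at most 1e-10, near the 43.5% of the whole set (32.9% of all listed peaks). Ccdc40, which sets the spacing of axonemal arms, had 11 peaks of 4.46 to 11.02. Drc1 of the nexin-dynein regulatory complex had 8 peaks of 5.26 to 17.23, Cfap43 8 of 3.43 to 15.02, and the androglobin gene Adgb 7 of 2.53 to 19.23. Foxj1, the transcription factor gene that drives motile cilia, and Tekt2 and Rsph9 had no peak. Motile cilia are typical of ependymal cells; their part in the values was not tested. Genes of intraflagellar transport and the ciliary base had 6 of 14, led by Ift74 (12 peaks, 3.5 to 19.96) and its partner Ift81 (8 peaks, 2.77 to 8.46). Sdccag8, a ciliopathy gene of the centriole, had 7 peaks of 3.43 to 10.57.

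Chromatin remodelling enzymes had 8 members of 29. Smarca2 had 14 peaks over 140528 bases of chromosome 1 with folds of 2.56 to 31.87, a wide range (SD 1.02). Smarcc1, a core subunit of the same SWI/SNF complex, had 13 peaks of 3.41 to 12.4 on chromosome 8 and was more even (0.54). Smarca4 had 9 peaks of 5.66 to 23.19, of which 8 had a p of at most 1e-10. Among cohesin, condensin and related genes, 4 of 13 were members: Smc6 (10 peaks, strongest 10.91), Smc1a (31.46), Smc3 (7 peaks, 20.17) and Smc2 (7 peaks, 6.18). The cohesin pair Smc1a and Smc3 had the stronger peaks, and no peak of the condensin gene Smc2 had a p of at most 1e-10.

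Of the transcription elongation, DNA repair and chromatin factors listed after the members had been seen, 18 of 29 were members, with 127 peaks. Rsf1, a histone-binding remodelling factor, had 12 peaks from 2.2, the lowest fold of the whole set, to 21.33. Topoisomerase I (Top1) had 8 peaks of 2.88 to 25.47, and the break repair gene Rad50 had 8 of 2.39 to 7.48. Histone methylation, acetylation and corepressor genes had 2 members among 33 genes with a peak (6.06%), near the 4.56% over all names. Setd2, Kdm5a, Hdac4 and Sin3a, with 5 peaks each, were just outside.

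Splicing and RNA-binding genes had 8 members of 53. Besides Zc3h13, they included the splicing helicase Ddx46 with 10 peaks on chromosome 17, of which the fifth to the ninth had folds of 19.1, 23.47, 19.83, 18.32 and 12.01 and the 5 others 3.84 to 6.12. Rbm33 had 10 peaks of 2.82 to 18.56, and Rbm25, a splicing regulator rich in arginine and glutamate, 7 of 4.55 to 22.69. Of the writer complex, only Zc3h13 was in the set, and Virma, listed under a provisional name, had 2 peaks. Nucleolar ribosome assembly genes, listed after the members had been seen, had 5 members of 26. Esf1 (2.33 to 19.54), Bms1 (2.68 to 12.35), Nop14 (3.29 to 12.22) and Ddx10 (2.75 to 10.78) had 7 peaks each.

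Among translation factors, the 4 members of 13 genes with a peak held 38 peaks. Of these, 29 (76.3%) had a p of at most 1e-10, against 43.5% in the whole set and 32.9% of all listed peaks. The strongest folds of the 4 members had a median of 28.25, against 12.68 over all members. Genes of this list with fewer than 6 peaks had strongest folds from 4.69 (Larp4b) to 26.89 (Eif2s2). Eif4g3, a scaffold of cap-binding initiation, had 15 peaks over 146792 bases of chromosome 5 with folds of 4.35 to 19.97, of which 9 reached 10-fold. In Eif3a the folds were 26.89, 27.88, 17.43, 24.72, 18.11, 12.72, 6.91 and 15.45, so 7 of 8 reached 10-fold. With Eif5b, whose 7 peaks all reached 10-fold, and Gigyf2, with 3 of 8, these genes had 26 such peaks in all. Eif4a1, Eef1a1 and Eef2, genes of an initiation helicase and of elongation factors, had no peak.

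At synapses, presynaptic active zone and vesicle genes had 4 members of 24 (16.7%) and postsynaptic scaffolds and receptors 0 of 20. Over all names the share was 4.56%, and in a list of 20 genes 0 members is close to that. Kalrn and Ppp1r9a came nearest among the postsynaptic genes with 5 peaks each. Tnik, a member also found at the postsynaptic density, was counted in the kinase list only. No test of a difference between the sides was made. Erc1, like Erc2 a scaffold of the active zone, had 12 peaks over 178013 bases of chromosome 4 with folds of 4.03 to 14.52. Ppfia1, which encodes liprin-alpha-1, an organiser of release sites, had 7 peaks of 3.75 to 10.42 at a median gap of 1656.5 bases, far closer than in Erc2 or Rims1. Folds in Rims1 were 5.02, 8.11, 6.88, 6.63, 2.7, 15.76, 3.51 and 6.54, with a single peak above 10-fold. Over the 4 genes the strongest folds ranged from 10.42 to 15.76.

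Channel and pump genes had 1 member of 21 (4.76%) and chaperones 1 of 14 (7.14%), near the 4.56% over all names. The channel list did not hold Itpr2. Its member was the ryanodine receptor gene Ryr2, a calcium release channel, with 7 peaks of 3.37 to 9.04. Sec63, which serves protein import into the endoplasmic reticulum, was the chaperone member, with 7 peaks of 4.14 to 14.74. Vesicle trafficking genes had 3 of 20: Eea1 (3.27 to 10.45), the endocytic scaffold Itsn1 with 8 peaks of 4.62 to 31.22, and the adaptor subunit Ap3b1 with 6 peaks of 4.12 to 10.99. Of 19 ubiquitin ligases and proteases with a peak, none had 6, and Usp8 had 5. In a list of 19 genes, 0 members is close to the 4.56% over all names.

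Protein kinases, many with coiled coils, listed after the members had been seen, had 10 members of 19. Rock1, a kinase that acts on actomyosin contraction, had 10 peaks in 22777 bases of chromosome 18 with folds of 3.84 to 9.5 (SD 0.37). Tnik, a kinase of the Wnt pathway and the postsynaptic density, had 9 peaks of 4.63 to 19.75, strongest at the fourth and the fifth. Slk had 8 peaks, of which 7 lay between 4.99 and 7.27 and 1 at 14.69. Tlk2, a chromatin assembly kinase, had 8 of 2.33 to 10.09. Rock1 and Slk were among the evener kinases, with SDs of 0.37 and 0.45, and Cdk11b the least even of those named at 1.08.

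The annotation terms deposited with the table describe the same 192 genes as the lists, so they are no separate support. Of these terms, 44 were carried by at least 10 members, or 5 for pathways. In 36 of the 44 the share was higher among annotated members than among all annotated genes of the table. Terms that few members carry could not enter, so this count leans towards higher shares by construction. For cellular components (174 members annotated, 3629 genes in all), centrosome was carried by 19 members (10.9% against 4.77%), cytoskeleton by 13 (7.47% against 2.73%), Golgi apparatus by 20 (11.5% against 6.83%), axon by 10 (5.75% against 3.06%) and nucleoplasm by 47 (27.0% against 18.2%). Membrane terms were split. The term membrane was carried by 43 members (24.7% against 16.6%). Integral component of membrane was lower, with 12 members (6.90% against 13.4%), as was plasma membrane with 25 (14.4% against 16.2%). Cytosol was also lower, at 10.3% against 12.6%. No enrichment test was made. Terms are those the authors attached, and a gene can carry several.

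Among molecular functions (157 members annotated), poly(A) RNA binding was the most frequent term, with 48 members (30.6% against 16.0%), among them Eif3a, Ktn1, Rrbp1, Ddx46, Rbm25 and Zc3h13. ATP binding was carried by 34 (21.7% against 12.9%), chiefly motors, kinases and remodellers such as Myh10, Rock1 and Smarca2. Chromatin binding was carried by 18 (11.5% against 5.18%), actin binding by 14 (8.92% against 3.11%) and microtubule binding by 10 (6.37% against 2.40%). In pathways (56 members annotated), regulation of the actin cytoskeleton had 9 members (16.1% against 4.01%), which were Dock1, Iqgap2, Myh10, Myh14, Myh9l1, Ppp1r12b, Rdx, Rock1 and Rock2. RNA transport had 6 (10.7% against 4.01%), which were Eif3a, Eif4g3, Eif5b, Srrm1, Tpr and Upf3a. The deposited gene descriptions held the word coiled for 9 members (4.69% against 2.09%) and myosin, kinesin or dynein for 10 (5.21% against 1.73%).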

How the data were processed

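The data were 1 deposited table of peaks from 2 libraries, 1 IP and 1 input, of lead-exposed neurons, grouped by sample title. Total RNA was extracted, m6A RNA was immunoprecipitated with a kit and directional libraries were made, per the labels' protocols. STAR, HISAT2 2.0.4 and cutadapt 1.9.3 appear in the submitters' processing notes, with no role. Peak names in the table are of the MACS kind; the sources used here do not give its version, the build or the annotation. Fold enrichment is a linear ratio from the authors, p was deposited as a score (10 times −log10 of p) and the false discovery rate as a percent, per the file headers. Depth is unknown.

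Peaks were counted per deposited gene name, and gaps, spans (on the chromosome with the most peaks) and the SD of log2 fold were computed per name. A name was called repeated where at least 2 peak lengths recurred at loci over 100 kb apart or on another chromosome. The computation was tested on simulated data. Medians have order-statistic 95% intervals and shares exact (Clopper-Pearson) ones, for counting error only. For names only, members were looked up in RefSeq genes of GRCr8 (189 found by gene ID, 1 by symbol, 2 not found); 4 members had a provisional name.

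The members, the 17 gene lists and the rule for named genes were chosen with earlier results of these data known; 5 further lists were written after the member names had been seen. List genes were also matched through their current symbol, which added 8. The rule names, leaving out provisional names, the 10 genes with the most peaks, the 5 with the widest span, smallest median gap, lowest SD, highest SD and highest fold, in each list the 4 or fewer members with most peaks, and 4 genes on each side of the limit. Some genes that the rule takes, and some terms of 386 genes, are not reported here. Protein sequences, planned for a description of composition, were not used here. Alternatives were limits on p and fold, other minimum numbers of peaks, merged peaks, counting per transcript, removal of provisional names and, added after the data were seen, repeated peaks counted at 1 locus and names split at gaps over 100 kb. No genome of the table's build was used, so no sequence was read. The work was done in Python 3.11.15 with SciPy 1.17.1, numpy 2.4.6, matplotlib 3.10.9 and pandas 2.3.3.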

Additional observations from a re-analysis of the deposited data

How the results depend on the processing

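Of 108 alternative values, 85 stayed within the interval of the reported value (for counts, within 1.5 times) and 23 moved. Keeping only peaks with a p of at most 0.05 left 105 genes with 6 or more peaks and 837 peaks, with a median fold of 7.88 and 35.2% at 10-fold or more. Keeping a p of at most 1e-10 left 35 genes and 266 peaks, with a median gap of 2798.5 bases, a median SD of 0.59, a median fold of 11.39, 62.0% at 10-fold or more and a median length of 164 bases. Keeping folds of at least 4.1 left 124 genes and 973 peaks, with an SD of 0.57, a median fold of 7.55, 32.7% at 10-fold or more and 56.3% at a p of at most 1e-10. These limits remove weak peaks by construction. A minimum of 5 peaks gave 304 genes, and a minimum of 8 gave 81 genes and 808 peaks, with a median gap of 3211 and a median span of 66372 bases. Merging peaks less than 1000 bases apart raised the median gap to 3993.5 bases, also by construction, and left 166 genes. Merging under 100 bases changed nothing, and counting per transcript (177 genes), removing provisional names (188), counting repeated peaks at 1 locus (189) and splitting names at gaps over 100 kb (180) moved none of the 10 values. The median difference between neighbours stayed between 0.56 and 0.63 under all 11 alternatives.

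No paired analysis was possible because each group had 1 library, and leaving out a replicate was not possible either. Without read counts, it is not known which genes had too few reads for 6 peaks to be called. Peaks of the same gene come from the same 2 libraries and are not replicates.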
